A study of Mus musculus with 8 samples.

Results

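Long ac4C loci were stretches of the mouse genome at which N4-acetylcytidine (ac4C) peaks of 1000 bp or more were called in at least 2 of the 4 peak lists of the series. Peaks of the 4 lists that shared at least 1 bp were merged to 39860 loci, and 597 of them were long by this rule, which is 1.5% of all merged loci. They lay in 558 genes. The members were thus selected on peak length, so that their length, their number of lists and whatever follows from both are descriptions and carry no test.

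The cells were mouse female germline stem cells (FGSCs), a line derived from the ovary, and differentiated female germ cells (Dif-FGCs) obtained from it. To differentiate them, the study grew the FGSCs together with granulosa cells in medium that contained bFGF, BMP4 and retinoic acid, and the Dif-FGCs were those of day 3. The labels give the FGSC group as control and the Dif-FGC group as differentiated, and name no other treatment or allele. Each group had 2 RNA immunoprecipitation (IP) libraries and 2 input libraries, and the authors called 1 peak list per IP library over its input. The lists are named by group and replicate number. Where 4 values stand together they follow the order FGSC 1, FGSC 2, Dif-FGC 1, Dif-FGC 2. The study calls the replicates biological, and the labels do not say whether they came from separate cultures.

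ac4C is an acetylated form of cytidine written into RNA by the acetyltransferase NAT10. In messenger RNA it has been linked to stability and to the efficiency of translation. In acRIP-seq, RNA is broken into short fragments, the fragments are pulled down with an ac4C antibody, and a peak marks a region in which pulled-down fragments outnumber those of the input. A peak far longer than a fragment is therefore a run of neighbouring enriched fragments, and its length does not give the number of acetylated cytidines. Lengths are distances on the genome, so that a peak that crosses an intron includes it.

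Of the defining germ cell markers Ddx4, Dazl, Dppa3, Pou5f1, Ifitm3 and Prdm1, 1 of 6 had a peak in each FGSC list, 0 in Dif-FGC 1 and 1 in Dif-FGC 2. Ddx4, Dazl, Dppa3 and Pou5f1 had none in any list. Of 9 granulosa cell markers, 2, 1, 3 and 3 had a peak. Nr5a1 and Nr5a2 had peaks in both Dif-FGC lists and in neither FGSC list. Inhba had 3, 3, 2 and 0 peaks, Fst had 3 in FGSC 1 alone and Inha 2 in Dif-FGC 2 alone, so that the markers did not point one way. Foxl2, Amh, Fshr and Cyp19a1 had none. Granulosa cells were part of the differentiation culture, and their part in the Dif-FGC lists was not tested. The lists hold no read counts, and the absence of a peak shows neither the absence of ac4C nor that of expression.

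The motif known for ac4C is a series of cytidines that are each followed by a pair of other bases, written CNNCNNC (N, any base). Gene starts that lay inside the long loci are shown first because some of them carry this run at the first transcribed bases. Of 32817 promoter windows of RefSeq (GRCm38.p6), 191 overlapped a long locus, and for 139 of them, at 128 loci, the first 50 transcribed bases lay in peaks of at least 2 lists. At 82 of these windows the start of the gene was also the limit of the peak in at least 2 lists, and at 46 in all 4. The following 30-base runs are the first transcribed bases, read 5′ to 3′ on the strand of the gene, with the cytidines of CNNCNNC matches in capitals.
Cdk13: CgCCgCCgCCgCCaCaggacgacgtggacg
Tgfb1: CgCCgCCgCCgCCgCCcttcgcgccccagg
Jmy: gCCgCCgCCgCgtCagCagCgtgccgcacg
Keap1: agacCcaCgcCCtgCtcCCtCCgCCcggca
Cebpb: gcccgttgccaggCgcCgcCttataaacct
Jun: gttgagctcaggctggataaggactcagag
Junb: tataaaagcttggggctggggccgagcact

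The runs came from Cdk13 at chr13:17805068-17805097 (minus strand), Tgfb1 at chr7:25687002-25687031 (plus), Jmy at chr13:93499779-93499808 (minus), Keap1 at chr9:21239303-21239332 (minus), Cebpb at chr2:167688915-167688944 (plus), Jun at chr4:95052193-95052222 (minus) and Junb at chr8:84978719-84978748 (minus). The number of motif starts was 7 in Tgfb1, 6 in Cdk13 and in Jmy, 5 in Keap1 and 1 in Cebpb. These runs were picked to include the richest. Of 43 such runs examined at gene starts that were the peak limit in all 4 lists, 19 held a motif start and 24 held 0. Jun and Junb held 0 in these 30 bases although both transcripts lay in long peaks of all 4 lists. Over the first 50 transcribed bases, 95 of the 139 windows (68.3%) held the motif on the gene strand against 50.7% of all windows, and 83.5% against 60.0% held it on the opposite strand. The median GC content of these bases was 68% against 56%, and the median share of C was 30% against 26%. A match is a description of the letters and not a site.

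The longest of the loci lay in Map1a, a microtubule-associated protein (chr2:121299269-121307372). Its longest peak was 8081 and 8047 bp in the FGSC lists and 7805 and 8104 bp in the Dif-FGC lists. These lengths were close to one another in both groups, and each list held the locus as 1 peak. The fold enrichment over the input at Map1a was 22.0, 15.4, 19.1 and 15.8. Fold is relative to the input of the same list and is not compared between lists.

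Ankrd11, a chromatin regulator, was likewise of nearly constant length, with 6518, 6500, 6518 and 6518 bp (chr8:122889639-122896156). Spen, a transcriptional repressor that binds RNA, had peaks of 8019, 1955, 6020 and 8020 bp (chr4:141471370-141479389). FGSC 2 was the low list at Spen and split the locus into 3 peaks. Rai1, a nuclear protein first described as induced by retinoic acid, had 2541 and 2417 bp in the FGSC lists and 5425 and 6785 bp in the Dif-FGC lists (chr11:60185096-60191880). Here the longest peaks of the groups did not overlap. The FGSC lists split the Rai1 locus into 4 and 3 peaks, and each Dif-FGC list held it as 1. The bases covered by all peaks of a list were closer, with 4317, 4903, 5425 and 6785 bp. Plec, the cytoskeletal linker plectin, had peaks of 7342, 7412 and 7412 bp in FGSC 1, Dif-FGC 1 and Dif-FGC 2 with folds of 162.0, 157.2 and 160.2, and none in FGSC 2 (chr15:76170974-76178385). The other loci among the 10 longest lay in Zfhx3, Golgb1, Ahdc1, Nfic and Gm996, and their widths ran from 4684 to 5454 bp.

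**Figure D1:**
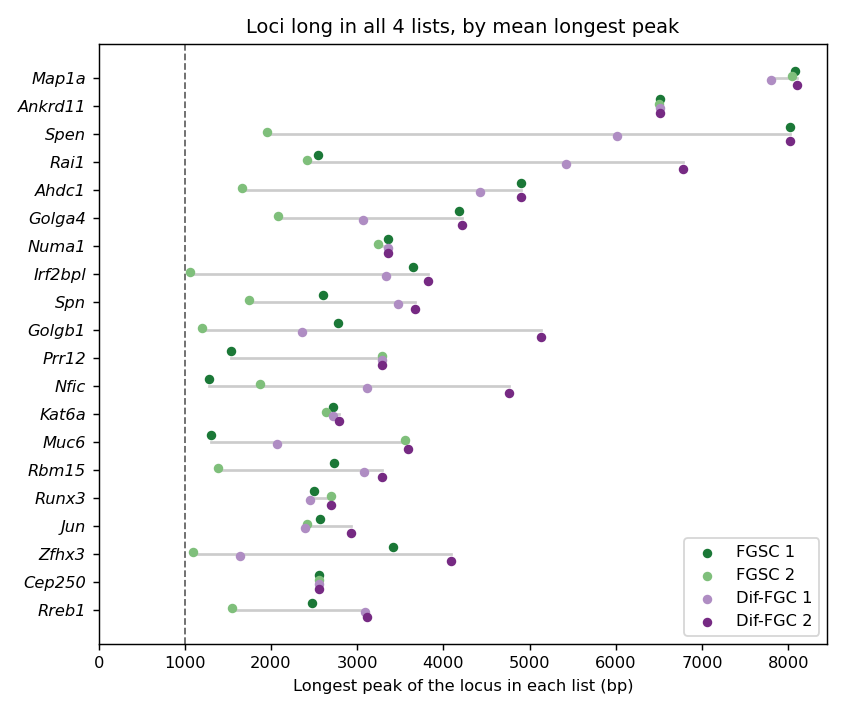
Longest peak in bp (horizontal axis) at the 20 loci with the longest mean among those long in all 4 lists, each point being 1 peak list and the grey line the range over lists. Map1a and Ankrd11 had similar lengths in every list, whereas the FGSC 2 peak of Spen was 1955 bp against 6020 to 8020 bp in the other lists.

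The 597 loci had a median width of 1606 bp and ranged from 1001 to 8104 bp. The 17460 other loci with peaks in at least 2 lists had a median of 192 bp. Close to the threshold, the list that decided membership had a peak of 1000 bp at the fourth Ahnak2 locus (chr12:112784440-112785595) and at Dgcr8, and of 999 bp at a Mex3d locus (chr10:80386661-80387659) and a Runx1 locus, which were left out. Another locus of Mex3d (chr10:80380715-80382621) was a member. A further 537 loci were long in a single list and were not members, of which 353 came from Dif-FGC 2, 101 from Dif-FGC 1, 60 from FGSC 1 and 23 from FGSC 2.

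Dif-FGC 2 stood apart from the other lists before any locus was selected. It held the fewest peaks, 13920 against 16290 to 22791, yet the longest ones, with a median of 210 bp against 158 to 165 bp. Peaks of 1000 bp or more numbered 427 and 283 in the FGSC lists and 634 and 914 in the Dif-FGC lists, or 1.87%, 1.74%, 2.82% and 6.57% of each list. Both Dif-FGC lists held more than both FGSC lists. The mean was 355 ± 102 over the FGSC lists and 774 ± 198 over the Dif-FGC lists (SD, n = 2), a difference of 419. No test is given, because the count uses the length minimum of the selection rule. The number of reads behind each list is unknown.

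Of the 597 loci, 171 were long in all 4 lists, 160 in 3 and 266 in 2. Counting peaks of any length, 437 (73.2%) had a peak in all 4 lists, whereas 34.1% of all loci with a peak in at least 2 lists did. Because a member needed long peaks in at least 2 lists, nothing is read from this contrast. A further 112 loci had a peak in 3 lists and 48 in 2. FGSC 1 had a peak at 544 of the loci and a long one at 362, FGSC 2 at 494 and 255, Dif-FGC 1 at 580 and 521, and Dif-FGC 2 at 562 and 558. A peak of Dif-FGC 2 at a long locus was thus nearly always long itself.

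**Figure D2:**
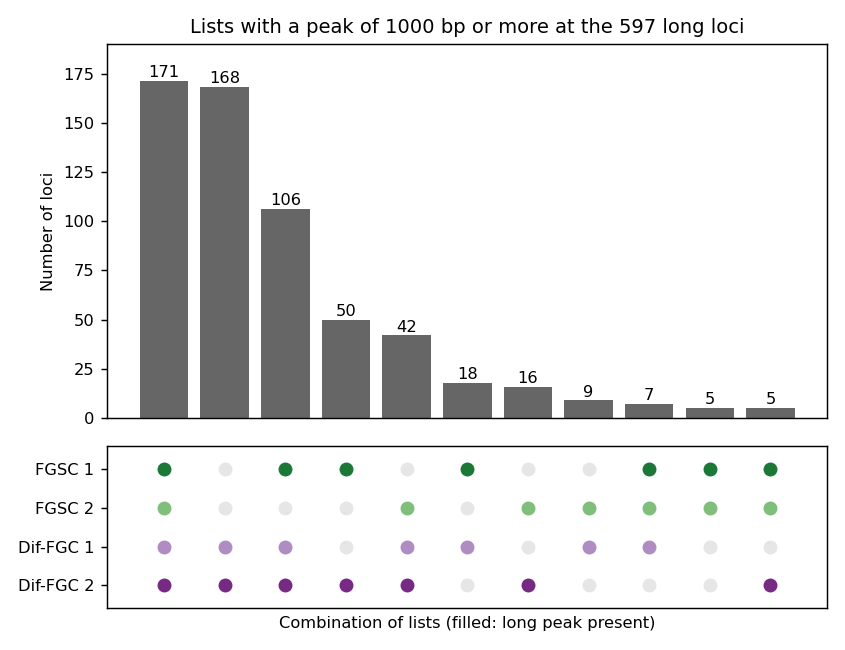
Number of long loci (bars) for each combination of lists with a peak of 1000 bp or more (filled dots below). The 2 commonest combinations were all 4 lists with 171 loci and both Dif-FGC lists alone with 168, and both FGSC lists alone made up 5.

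Both Dif-FGC lists and neither FGSC list were long at 168 loci, and both FGSC lists and neither Dif-FGC list at 5. Most of the 168 were not absent from FGSCs. At 99 of them both FGSC lists had a shorter peak, at 44 one FGSC list did, and at 25 neither had a peak. When the 283 longest peaks of every list were taken instead of those of at least 1000 bp, an alternative added after seeing the data, 33 loci were long in the Dif-FGC lists alone and 34 in the FGSC lists alone. The shortest peaks taken were then 1206 and 1002 bp long in the FGSC lists and 1413 and 1783 bp in the Dif-FGC lists. With the 13920 peaks of highest score from every list and the minimum of 1000 bp, the counts were 155 and 4. Dif-FGC 2 holds 13920 peaks, so this cut left it whole and shortened only the other lists. The role of list size was therefore not tested. Taking the 283 longest peaks of every list gives both groups the same number of long peaks by design. This pushes the counts of the groups towards balance, so nothing is read from the 33 and 34 loci.

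Dido1, a chromatin-associated death inducer-obliterator, was an example of a locus that was present in both groups but long in one, with 856 and 979 bp in the FGSC lists and 3237 and 3352 bp in the Dif-FGC lists. Zbtb7a, a zinc finger repressor, had 631 and 501 bp against 4147 and 2975 bp at one of its loci (chr10:81147970-81152116). At the other (chr10:81143962-81145217) its peaks were 1256, 1254, 1256 and 1256 bp, so that 2 loci of the same gene differed in pattern.

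A peak in both Dif-FGC lists and in no FGSC list was found at 25 members (4.19%), against 8.05% of all loci with a peak in at least 2 lists. The reverse was found at 5 members (0.838%) against 7.97%. Vat1, a membrane transport protein, had 1963 and 3173 bp in the Dif-FGC lists with folds of 3.27 and 7.24. Mef2d, a MADS-box transcription factor, had 1763 and 1893 bp with folds of 18.4 and 22.8. Pja1, Etv3, Ssh1, Gna12, Slc7a8 and Rab11fip3 completed the 8 longest of this kind, and their Dif-FGC peaks were 1322 to 2854 bp long. Fos, the immediate early transcription factor, belonged to the same class with 1129 and 1312 bp.

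The 5 loci of the FGSC lists alone were Srcap, Uaca, Irf2bp2, Akap12 and Mgat2, and none of them had a Dif-FGC peak of any length. Srcap, the catalytic subunit of a remodeller that deposits histone H2A.Z, had 3111 and 2193 bp in FGSC 1 and FGSC 2 (chr7:127557968-127561078). Uaca had 2241 and 1994 bp and Irf2bp2, a transcriptional corepressor, 1547 bp in each. Akap12, a scaffold for protein kinase A, had 1090 and 1985 bp, and the folds of these peaks were 28.6 and 22.0. Mgat2, an enzyme of N-glycan synthesis, had 1443 and 1439 bp. The remaining loci mixed the groups, and the commonest such combination was FGSC 1 with both Dif-FGC lists at 106 loci.

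At the 437 members with a peak in all 4 lists, the median longest peak was 1157 and 1006 bp in the FGSC lists and 1343 and 1550 bp in the Dif-FGC lists. Both Dif-FGC peaks were longer than both FGSC peaks at 205 of them (46.9%) and the reverse held at 1. Among all loci with a peak in all 4 lists the shares were 17.6% and 0.503%, so the longer Dif-FGC peaks were also seen outside the members. Length was used by the rule, so this contrast has no test. Fold, ranked within each list as a percentile, leaned the same way but was far less one-sided. Both Dif-FGC percentiles were above both FGSC percentiles at 113 members (25.9%, against 22.6% of all loci with a peak in all 4 lists), and below them at 59 (13.5%, against 16.3%).

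**Figure D3:**
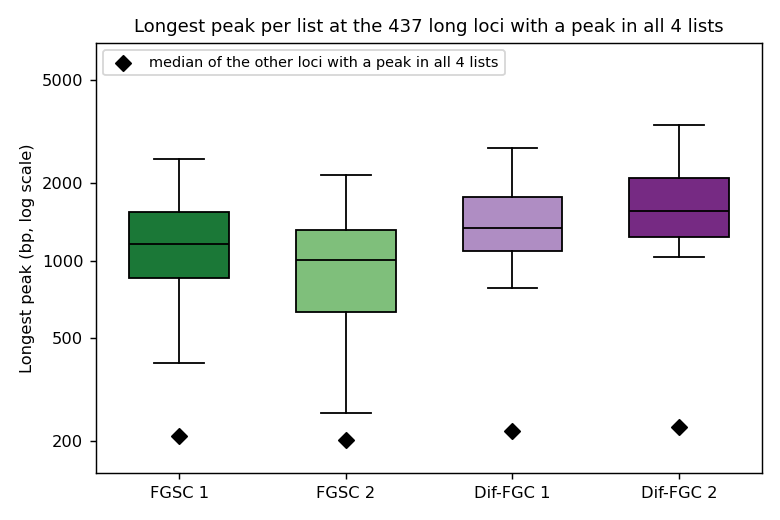
Longest peak in bp (log scale) in each list at the 437 long loci with a peak in all 4 lists. Boxes show the quartiles and the median, whiskers the 5th and 95th percentiles, and diamonds the median of the 5723 other loci with a peak in all 4 lists. The medians of the long loci were 1157, 1006, 1343 and 1550 bp and those of the other loci 209, 202, 219 and 227 bp.

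Peaks at the members were often cut differently by the lists. Several peaks at 1 locus occurred at 91 and 89 loci in the FGSC lists, and at 70 and 7 in the Dif-FGC lists. The median share of the locus covered by the peaks of a list, over all 597 loci, was 80.8%, 56.8%, 94.7% and 100%. The limits of the longest peak were identical in all 4 lists at 42 of the 437 members (9.61%) and at 2663 of the 5723 other loci (46.5%). All 42 were long in all 4 lists. Among the remaining 129 loci that were long in all 4 lists, FGSC 2 had the shortest longest peak at 79 and Dif-FGC 2 at 2, with ties counted in each list.

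Kdm6b, a histone H3 lysine 27 demethylase, was one of the loci with equal lengths in all lists, with 2168 bp in each and folds of 44.9, 160.0, 60.2 and 63.7. Cdk13, a kinase of the RNA polymerase II tail, had 1660 bp in each list, Bcl9l, a Wnt coactivator, 2287 bp, Cep250, a centrosomal protein, 2559 bp, and Tgfb1 1222 bp. At these loci the length gave no distinction between the groups.

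The members lay in the upper part of each list by fold. The median of the highest fold at a member was 16.4, 12.7, 14.3 and 12.7, and at the other loci with peaks in at least 2 lists 13.1, 8.60, 9.26 and 8.59. The median fold percentile was 69.9, 71.7, 75.9 and 70.2 against 61.6, 58.8, 61.5 and 54.0. At loci with a peak in all 4 lists this gap was smaller or reversed, since the medians were 75.3, 74.2, 82.1 and 75.4 at the 437 members and 78.4, 72.1, 80.7 and 72.6 at the 5723 others. In FGSC 1 the members were then the lower set.

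Folds spread widely among the members. Hnrnpul2, an RNA-binding protein, had folds of 194.3, 350.9, 728.0 and 320.4 and a mean percentile of 99.6. Gpatch4, Hmgn5, Irf2bp1 and Hirip3 followed with mean percentiles of 99.3 to 99.6. Hmgn5, a nucleosome-binding protein, had a within-list fold percentile of at least 98.7 in every list. At the other end Mdc1, a DNA damage checkpoint scaffold, had folds of 6.37, 3.27, 3.80 and 3.70 and a mean percentile of 16.4, although its peaks were 1430 to 1474 bp long in every list. Ticam1, one Fam193b locus, Chd3 and Fiz1 also ranked low, with mean percentiles of 22.8 to 26.4.

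Counted per locus, the gene span was shorter at the members than at the other loci. The median gene span, measured at the 584 members whose gene overlapped the locus, was 20202 bp against 34609 bp for the other loci. Genes spanning under 5000 bp held 99 members (17.0%) against 4.39%. A gene counts once for each of its loci. The 597 members lay in 558 genes and the 17460 other loci in 7629. Spans per gene were not compared. The locus covered at least 50% of the gene span at 75 members (12.8%) and at 0.705% of the other loci, and at least 90% at 30 members. A long locus reached a limit of its gene at 191 members (32.7%) against 15.5%. Genes without introns and genes with a large exon cannot be told apart here, because no exon annotation was used.

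**Figure D4:**
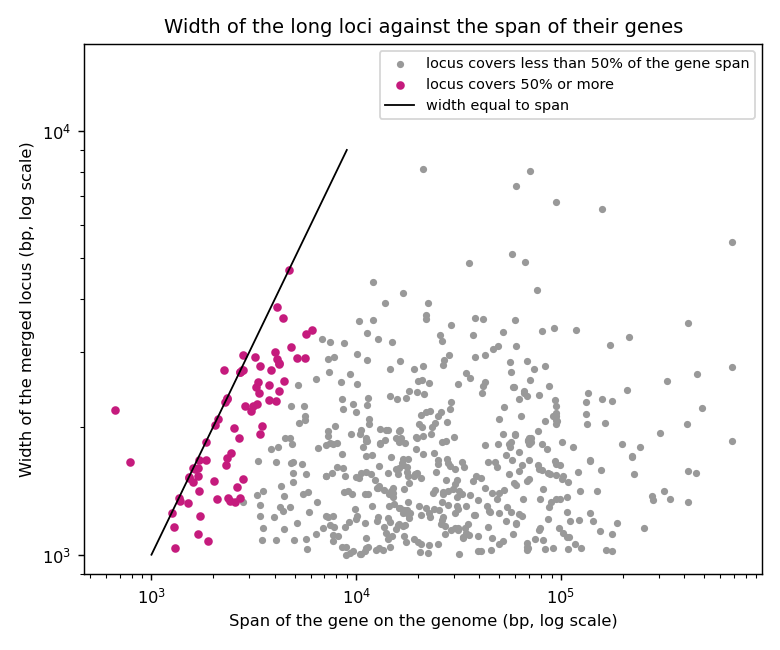
Width of each long locus (vertical axis, bp, log scale) against the span of its gene on the genome (horizontal axis, bp, log scale), each point being 1 of 584 loci. The 75 coloured points are loci that covered at least 50% of the gene span, and points on the line are as wide as the gene.

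The merged locus covered the whole gene span at Ier2, Junb and Cebpb, although not every list did so on its own. Junb, an AP-1 transcription factor, spans 1840 bp and had peaks of 1813, 1205, 1840 and 1840 bp (chr8:84976909-84978748). Ier2, an immediate early gene, spans 1522 bp and had 1522, 1284, 1343 and 1522 bp (chr8:84661331-84662852). Cebpb, a bZIP transcription factor, spans 1518 bp and had 1518, 1496, 1502 and 1372 bp with folds of 152.0, 44.5, 131.3 and 71.7 (chr2:167688915-167690432). Rrs1, a ribosome biogenesis factor, was covered over 98.5% and Irf2bp1, a transcriptional corepressor, over 99.7% of its span. The 30 loci also included the histone genes H1f0, H2afx, Hist1h1e and Hist2h3c1 and the heat shock genes Hspa1a and Hspa1b. The Hist2h3c1 locus was 2199 bp wide over a gene span of 664 bp, so most of its width lay outside the annotated gene. Near-identical copies exist for Hist2h3c1 and for the Hspa1a and Hspa1b pair, so that reads may have been placed on the wrong copy and these loci are uncertain.

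Several long loci fell into 1 gene at 33 of the 558 genes, 28 with 2 loci, 4 with 3 and 1 with 4. Ahnak2, a giant scaffold protein, had 4, and Kmt2d, Rusc2, Taok2 and Zfhx3 had 3 each. Kmt2d, a histone H3 lysine 4 methyltransferase, had loci of 2952, 1815 and 1434 bp. The shortest of them (chr15:98862776-98864209) was 1434 bp in every list, with folds of 12.0, 43.4, 49.5 and 53.6. The widest (chr15:98843595-98846546) was 1388 and 1309 bp in the FGSC lists and 2952 bp in both Dif-FGC lists. The middle one (chr15:98851891-98853705) had 1760, 1739 and 1815 bp in FGSC 1, FGSC 2 and Dif-FGC 1 and no peak in Dif-FGC 2. Loci of the same gene share a transcript and are not replicates of one another.

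Gene lists were then read against the 558 of 11417 genes with a peak (4.89%) that had a long locus. They are described by their counts, with no test, and the span of the genes, which differed between long and other loci, was not taken into account. In the immediate early and stress response list 10 of 24 genes with a peak had a long locus. These were Fos, Fosl2, Jun, Junb, Jund, Egr1, Ier2, Ier5, Zfp36l1 and Zfp36l2. Jun had peaks of 2572, 2413, 2392 and 2924 bp and Jund of 2224, 2238, 2224 and 2245 bp, and the groups overlapped at both. Egr1, a zinc finger factor, had 1637 and 1458 bp in the FGSC lists and 2508 and 2308 bp in the Dif-FGC lists, and the groups did not overlap. Zfp36l2, which binds AU-rich messenger RNAs and promotes their decay, had 2239, 2001, 2054 and 3010 bp.

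**Figure D5:**
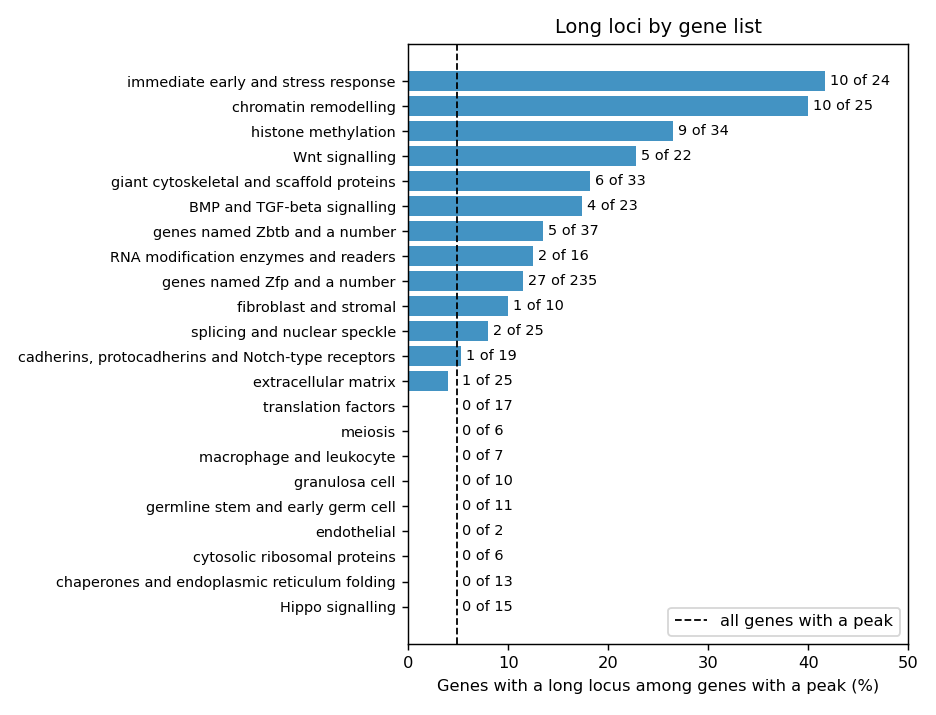
Share of genes with a long locus among the genes with a peak (horizontal axis, %) for the gene lists, with the counts beside the bars and the share of all genes with a peak (4.89%) as the dashed line. Immediate early genes (10 of 24) and chromatin remodellers (10 of 25) had the highest shares, and 9 lists had 0 genes with a long locus. These 9 lists were short, so that 0 is near the share of all genes and nothing is read from it.

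Chromatin remodellers and their coactivators had a long locus at 10 of 25 genes, among them Smarcc2, Arid1a, Chd3, Chd7, Ep400, Srcap, Ep300, Crebbp and Kat6a. Kat6a, a histone acetyltransferase, had 2725, 2637, 2718 and 2791 bp. Crebbp, a histone acetyltransferase and coactivator, had 209 bp in FGSC 1 and 1752 to 2151 bp in the other lists, and its paralogue Ep300 had no peak in FGSC 1, 798 bp in FGSC 2 and 2427 and 2360 bp in the Dif-FGC lists. Arid1a, a subunit of the BAF complex, had a locus of 1143 bp in every list and a second one of 1590 and 1440 bp in FGSC 1 and Dif-FGC 1 alone. Genes of histone methylation had a long locus at 9 of 34, namely Kmt2a, Kmt2b, Kmt2d, Kmt2e, Setd1a, Setd1b, Kdm3b, Kdm5c and Kdm6b. Setd1a had 1056 bp in all 4 lists. Kmt2a had 2381 and 1473 bp in FGSC 1 and Dif-FGC 1 and no peak in the other replicate of either group.

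Signalling genes were fewer. Wnt signalling had 5 of 22, with the receptor Fzd7, the kinase Gsk3b, the transducer Dvl3 and the coactivators Bcl9 and Bcl9l. Gsk3b had 1359, 1275, 1463 and 1527 bp. BMP and TGF-beta signalling had 4 of 23, with the ligand Tgfb1, the inhibitory Smad6 and Smad7 and the repressor Ski. Smad6 had 456 and 422 bp in the FGSC lists and 1480 and 1069 bp in the Dif-FGC lists, so that its groups did not overlap. Smad7 had 976, 1142, 1065 and 2204 bp, and its groups overlapped. Ski had a locus of 1041, 1039, 1041 and 1041 bp with folds of 99.5, 132.5, 96.9 and 177.1. In Hippo signalling 0 of 15 genes had a long locus. With a share of 4.89% over all genes with a peak, nothing is read from this count.

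Genes of giant cytoskeletal and scaffold proteins had a long locus at 6 of 33. Of the listed enzymes and readers of RNA modification 2 of 16 did. Both act on N6-methyladenosine, Zc3h13 as part of the writer complex with 1191 bp in every list, and Alkbh5 as an eraser with 1513, 1215, 1513 and 1513 bp. Not on the list, Rbm15 of the same writer complex had 2733, 1384, 3078 and 3289 bp. A locus that the lists assign to Pcif1, a cap-adjacent adenosine methyltransferase, had 1069 bp in FGSC 1 and 3578 bp in Dif-FGC 2 alone. This locus overlapped 4.67% of the 12073 bp gene span and ran past its limit, so most of its width lay outside the annotated gene. The FGSC 1 peak lay wholly outside the gene. Splicing and nuclear speckle genes had 2 of 25, extracellular matrix genes 1 of 25 (Hspg2), cadherins and related receptors 1 of 19 (Pcdh7) and fibroblast markers 1 of 10 (Vim). Of the genes chosen for the other lists, none with a long locus was found among 17 translation factors, 6 ribosomal proteins, 13 chaperones, 11 germline genes, 6 meiotic genes, 10 granulosa cell genes, 7 leukocyte genes and 2 endothelial genes with a peak. The lists do not hold every gene of their class, and long loci were found in the chaperone genes Hspa1a, Hspa1b and Hspa2, the translation termination factor Gspt1 and the leukocyte surface gene Spn, which were not on them. None of the mitochondrially encoded genes had a peak. Of the genes named Zfp, mostly zinc finger proteins, 27 of 235 (11.5%) had a long locus, and of those named Zbtb 5 of 37 (13.5%).

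The Gene Ontology terms that the authors attached to the peaks were counted in the same way. DNA binding was attached to 125 of 532 genes with a long locus (23.5%) and to 11.5% of the genes of the other loci, and sequence-specific transcription factor activity to 65 (12.2%) and 4.75%. Chromatin binding was attached to 47 (8.83%) and 3.59%, and a location in the nucleus to 286 of 535 (53.5%) and 41.8%. Lower shares were seen for transport, with 5.65% against 10.3%, and for mitochondrion, with 7.29% against 11.8%. These shares were not tested.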

How the data were processed

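acRIP-seq was performed by the authors on 8 libraries, an IP and an input for each of 2 replicates of FGSCs and Dif-FGCs. For trimming, alignment and peak calling the tools listed by the submitters are cutadapt, HISAT2 and MACS2 (versions not given), on mm10. The 4 deposited lists, labelled as acetylated mRNA sites, hold peaks per IP library, assigned by the authors to genes. In the deposited lists, fold is the ratio of IP to input, FDR is a percent, and the score is a transformed p-value that is higher for stronger peaks. The columns differ from the usual MACS2 output, so the release and the exact definition of these columns are not settled. The lists carry neither counts nor strand, and the depth is unknown. FDR was not used as a filter, because its median at long loci was 68.3% and 68.8% in the FGSC lists and 63.2% and 100% in the Dif-FGC lists. The lowest FDR of any peak at a long locus was 51.5%, 45.5%, 56.0% and 100%. Columns of per-sample values that were not mapped numbered 0.

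Peaks (half-open intervals) sharing at least 1 bp were merged without regard to strand with Python 3.11.15, pandas 2.3.3 and numpy 2.4.6, and loci with a peak of at least 1000 bp in at least 2 lists were kept. Merging was tested on simulated peaks and recovered every simulated locus. Long-locus names matched RefSeq (GRCm38.p6) by symbol at 562 loci, by gene ID at 22 and by synonym at 3, and 10 were kept as given. The strand of the gene was known for 438 of 558 genes (78.5%), so position along the gene was not analysed. CNNCNNC was searched on both strands with overlapping matches.

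Named genes were the 20 longest loci by mean peak length among those long in all 4 lists, the 10 widest loci, the 5 highest and 5 lowest by mean fold percentile, up to 8 loci per group-specific class, genes with several long loci, up to 4 genes per gene list and the loci next to the threshold. Other genes were named after their values were seen. The members and the 22 gene lists were chosen with earlier results of these data known. Some items, among them a gene list, are not reported here. No test result is given, since the values compared were used in the selection.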

Additional observations from a re-analysis of the deposited data

How the results depend on the processing

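A length minimum of 800 bp gave 923 long loci and one of 1500 bp 236, of which 290 and 60 were long in all 4 lists. At 800 bp, 12 loci were long in the FGSC lists alone, and at 1500 bp 71 in the Dif-FGC lists alone. With the peaks above each list's median fold, these classes held 3 and 104 loci. With the 283 longest peaks of every list, 285 loci were long, 72 of them in all 4 lists, 34 in the FGSC lists alone and 33 in the Dif-FGC lists alone. Leaving out 1 list at a time gave 362 to 568 long loci, and 362 was reached without Dif-FGC 2. The FGSC class then held 0 to 12 loci and the Dif-FGC class 0 to 274, where 0 arises because a class of 2 lists cannot be met by 1 list, and 274 was reached without FGSC 1. The difference in the number of long peaks was 279 to 559 with 1 list left out. With the replicate number as a block it was again 419, which the balanced design fixes in advance, and the lists share only a number. Ranked by score, the mean of the median percentiles was 82.0 against 71.9 by fold. The counts with a stricter merging overlap, a mutual overlap of long peaks and equal list lengths stayed within 1.5 times the reported ones.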

Other observations

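Long loci were spread over the chromosomes, and chromosome 7 held 81 of them (13.6%) against 7.79% of the other loci with peaks in at least 2 lists. Chromosome 11 held 64 (10.7%) against 8.82%. The gene density and the length of transcripts on these chromosomes were not compared.

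Of the long loci, 579 lay in protein-coding genes, 3 in long noncoding RNA genes (Gm20605, A830035O19Rik and 1700008J07Rik) and 5 in pseudogenes. The pseudogenes were Tpm3-rs7, Gm8325, Gm6793, Gpi-ps and Gm5641, and Gm6793 and Gm5641 were long in all 4 lists. A pseudogene can take reads of its parent gene, and this was not tested. Of the 17460 other loci with peaks in at least 2 lists, 17271 lay in protein-coding genes, 33 in long noncoding RNA genes and 79 in pseudogenes. The lists are labelled as mRNA sites, so these counts do not compare mRNA with long noncoding RNA. At 8 long loci the lists gave several gene names.

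Long loci made up 14.7% and 15.4% of the bases covered by peaks in the FGSC lists, and 16.5% and 20.7% in the Dif-FGC lists.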
